A study of Mus musculus with 46 samples.

Results

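Chaf1a, Chaf1b, Asf1a, Asf1b, Hira, Ubn1, Cabin1 and Daxx encode chaperones that place histones H3 and H4 on DNA, and their RNA levels were followed through the conversion of mouse fibroblasts to pluripotent cells. The members were chosen by symbol, and all 8 were present among the 37108 genes of the gene table and the 35976 gene symbols of the transcript table, where they were represented by 33 of 106520 transcripts. Mouse embryonic fibroblasts (MEF) carrying an Oct4-GFP reporter (OG2) were transduced with retroviral Oct4 plus either native Nanog (NanogWT, here WT) or a Nanog fusion (labelled NanogN70, here BiD) that carries the N terminus of SS18, which belongs to the BAF remodeller of chromatin. Both combinations therefore carried exogenous Oct4 and a Nanog transgene at every day, and day 0 (D0) cells had already passed the infection period. The medium was changed from a reprogramming medium to a pluripotent stem cell medium at about D7. Bulk RNA-seq covered 8 days between D0 and D12 (D1, D3, D5, D7, D8 and D10 in between) with 2 replicates per combination and day, except BiD at D8 (n = 1), which gave 31 samples. Untransduced MEF (n = 2), 1 mouse embryonic stem cell sample (mES) and 12 established induced pluripotent stem cell (iPSC) samples, 6 per combination, completed the set. By its label the mES sample also carries the OG2 reporter. By their labels, 2 of the WT iPSC samples (replicates 3 and 6) share the clone number 1 of line iPSC1, so they may not be independent. The labels do not say that replicates came from separate cultures, so p-values measure the spread between these samples, which may be technical.

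Chromatin assembly factor 1 (CAF-1) deposits newly made H3.1 and H4 behind the replication fork, where its large subunit binds the sliding clamp. The HIRA complex and DAXX, the latter with ATRX, deposit the variant H3.3 outside of replication. ASF1 hands H3-H4 dimers to CAF-1 and to HIRA. In fibroblasts, loss of CAF-1 function is known to ease reprogramming, which is why CAF-1 is described as a guard of cell identity. That ground covers Chaf1a and Chaf1b and not the other members.

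Expression is given as FPKM, fragments scaled to gene length and to the mapped fragments of the library. Differences are on the log2(FPKM + 1) scale, and a gene was called at a limma adjusted p under 0.05 over all genes tested (16842 in the time course). Fibroblast identity was checked with 8 markers whose summed level was 5766 to 6734 FPKM in MEF, 2763 to 3342 in WT at D12, 291 to 430 in BiD at D12 and 11.5 in mES. For 8 pluripotency markers the sums were 0.337 to 1.41, 159 to 217, 1200 to 2158 and 3534 FPKM, respectively. The marker sums for macrophage (5 genes) and primitive endoderm (4 genes) stayed at or under 21.9 and 10.9 FPKM, respectively, in the libraries of D0, D7, D8, D10 and D12, MEF and mES. The endothelial sum (4 genes) did not stay as low in BiD, with 4.96 to 7.785 FPKM at D0, 7.35 to 14 at D10 and 15.4 to 28.2 at D12. In bulk RNA, fewer cells of a type and less RNA per cell cannot be told apart. Relative sequencing depth, read from the steps between low values, was 0.828 to 1.13 in 28 libraries but 1.9 to 3.28 in the 6 WT libraries of D8, D10 and D12, so depth and combination cannot be told apart from D8 on.

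Promoters are shown for Chaf1b, Chaf1a and Asf1b, the members with the widest ranges over the 31 libraries (highest over lowest 6.56, 5.92 and 5.69), and for Ubn1, with the narrowest (1.95). These are the RefSeq windows (GRCm38.p6, matched by symbol for all 8 members) from 250 bases before to 50 after the start, in lower case. Capitals mark CCAAT boxes and GC boxes (GGGCGG) on either strand.
Chaf1a, chr17:56040166-56040465, plus strand: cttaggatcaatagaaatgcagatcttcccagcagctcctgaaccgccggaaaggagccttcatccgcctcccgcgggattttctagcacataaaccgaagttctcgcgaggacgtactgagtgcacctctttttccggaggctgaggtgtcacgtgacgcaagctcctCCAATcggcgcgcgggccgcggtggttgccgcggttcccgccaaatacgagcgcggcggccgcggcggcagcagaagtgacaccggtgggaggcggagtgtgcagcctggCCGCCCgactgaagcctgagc
Chaf1b, chr16:93883651-93883950, plus strand: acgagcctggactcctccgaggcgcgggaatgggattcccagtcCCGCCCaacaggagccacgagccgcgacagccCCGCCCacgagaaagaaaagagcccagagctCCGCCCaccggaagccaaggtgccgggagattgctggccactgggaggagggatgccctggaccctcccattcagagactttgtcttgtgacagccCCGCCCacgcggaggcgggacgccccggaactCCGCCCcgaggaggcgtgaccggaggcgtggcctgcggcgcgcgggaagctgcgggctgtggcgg
Asf1b, chr8:83955444-83955743, plus strand: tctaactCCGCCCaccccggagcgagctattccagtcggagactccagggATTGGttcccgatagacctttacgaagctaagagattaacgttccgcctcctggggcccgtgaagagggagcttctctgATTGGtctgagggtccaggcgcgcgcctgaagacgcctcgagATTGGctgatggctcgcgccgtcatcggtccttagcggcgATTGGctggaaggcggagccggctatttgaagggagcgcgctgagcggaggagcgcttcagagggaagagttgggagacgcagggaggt
Ubn1, chr16:5049807-5050106, plus strand: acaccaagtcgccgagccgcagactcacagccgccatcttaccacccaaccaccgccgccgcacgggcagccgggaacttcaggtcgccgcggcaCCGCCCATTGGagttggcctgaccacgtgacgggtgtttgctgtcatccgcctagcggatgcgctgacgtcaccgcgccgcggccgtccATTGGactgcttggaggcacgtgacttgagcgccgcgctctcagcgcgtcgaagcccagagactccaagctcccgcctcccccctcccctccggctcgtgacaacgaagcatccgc
The Asf1b window held 4 CCAAT boxes and 1 GC box, that of Chaf1b 5 GC boxes and no CCAAT box, and that of Chaf1a 1 of each. Ubn1 held 2 CCAAT boxes and 1 GC box. Among all 32851 RefSeq promoter windows, 37.4% held a CCAAT box and 35.7% a GC box. E2F sites (TTTCCCGC, TTTGGCGC, TTTCGCGC or TTTGCCGC, on either strand) were also searched. No window of the 8 members held one of these exact forms, against 2.26% of all windows. Other forms of the E2F site were not searched, in the Chaf1a window or elsewhere. The search therefore cannot show that a member lacks an E2F site. The members' windows were GC rich, at 54.7% to 70.3% against a median of 52.7%, and held 22 to 36 CpG against a median of 7. No 2 of these motifs overlapped in the 4 windows printed.

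Chaf1a and Chaf1b were called higher in BiD than in WT at D7, D10 and D12 and Asf1b at D10 and D12, while Ubn1 and Cabin1 were called at none of these days. At D0, 1 of 8 members was higher in BiD (Ubn1), where 1.24% of all tested genes were higher. No member was called at D1, where 3.27% of genes were called in either direction. At D3, Asf1a alone was higher (4.25% of genes higher). At D5 no member passed (16.4% of genes called), with Hira and Chaf1b nearest at adjusted p = 0.052 and 0.055. Chaf1b was called at D5 with the replicate block (adjusted p = 0.043) and with the compared groups alone (0.024), and Hira without the filter (0.0499), so the day at which they first differed depends on the fit. At D7, 3 members were higher (Chaf1a, Chaf1b and Hira), beside 17.3% of genes. At D10, 6 members were higher, beside 32.4% of genes, and at D12 there were 5, beside 31.6%. No member was lower in BiD at any tested day. D8 was left without a test because BiD had 1 library.

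**Figure D1:**
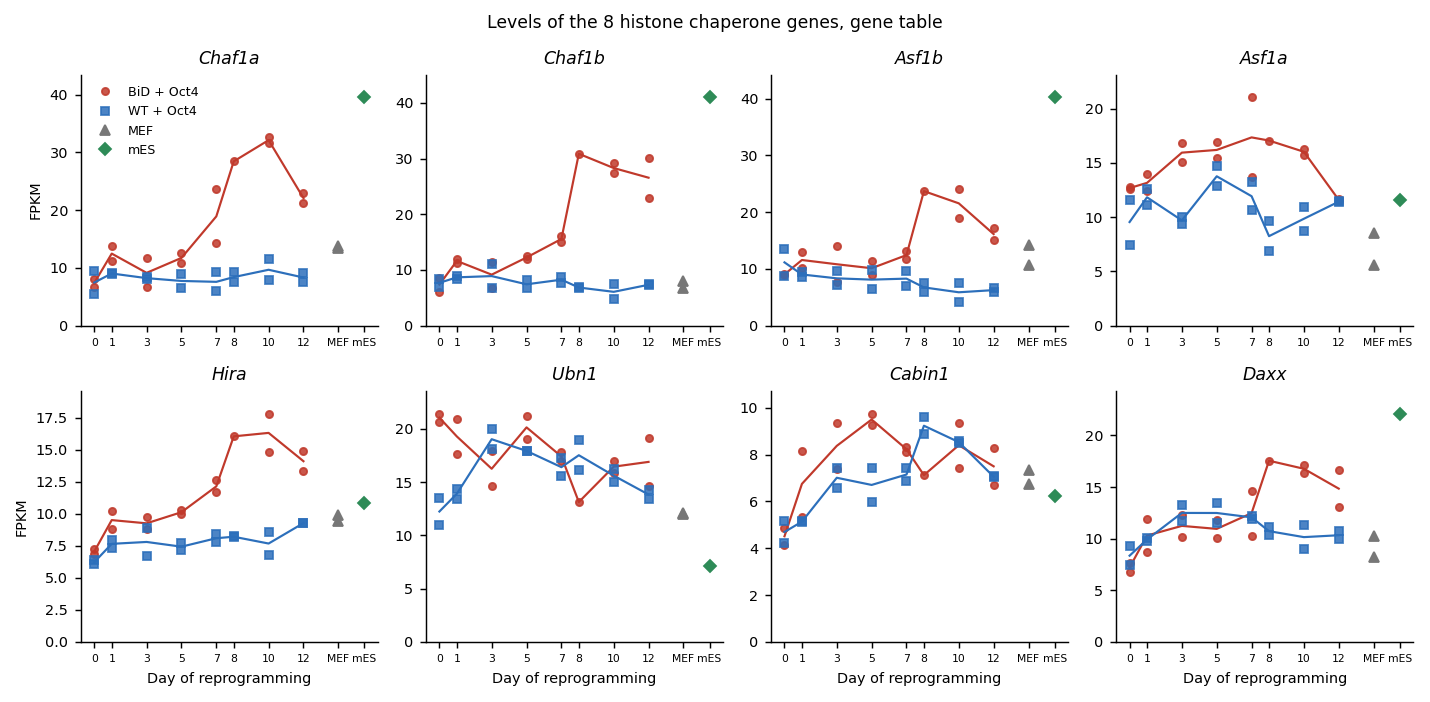
FPKM (vertical axis, from 0) of each member against day of reprogramming for BiD (red circles) and WT (blue squares), with MEF (grey triangles) and mES (green diamond) at the right. Points are libraries and lines join the means. Chaf1a, Chaf1b and Asf1b of BiD lie above WT at D1 and from D7 on, and Chaf1a and Chaf1b also at D5, whereas Ubn1 and Cabin1 cross.

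Chaf1a encodes p150, the large CAF-1 subunit (chr17:56040416-56068026, plus strand). In BiD libraries D0 gave 8.13 and 6.67 FPKM, D1 13.8 and 11.2, D3 11.6 and 6.66, and D5 12.6 and 10.9. Later BiD libraries gave 23.6 and 14.2 FPKM (D7), 28.5 (D8), 31.7 and 32.6 (D10) and 23.0 and 21.2 (D12). In WT libraries it stayed between 5.51 and 11.5 FPKM at all 8 days, with 9.26 and 5.92 at D7 and 9.05 and 7.61 at D12. Every BiD library from D7 on lay above every WT library of the whole course. The difference was 1.201 ± 0.27 (log2, SE; adjusted p = 0.0022) at D7, 1.66 ± 0.27 (adjusted p = 3.42e-05) at D10, while D12 gave 1.31 ± 0.27 (adjusted p = 0.00047). Mean levels were 2.49-fold, 3.32-fold and 2.65-fold those of WT on these days. Without BiD replicate 1 of D7, the higher of the pair, the D7 difference was 0.86 and lost its call (adjusted p = 0.053). MEF held 13.5 and 13.8 FPKM and mES 39.5, so that WT cells at D12 stood at 0.609 of MEF and BiD cells at 1.61-fold of MEF. By level the order was mES, BiD D10, BiD D8 and then BiD D12 and D7, whose ranges overlapped. From MEF downwards the neighbouring ranges overlapped throughout.

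Chaf1b encodes p60, the second large CAF-1 subunit (chr16:93883900-93906115, plus strand). BiD libraries of D0 held 8.65 and 6.11 FPKM, those of D1 12.0 and 11.3, of D3 11.5 and 6.84, and of D5 12.6 and 11.9. They then held 16.2 and 14.95 FPKM (D7), 30.9 (D8), 29.2 and 27.4 (D10) and 30.2 and 23.0 (D12). WT libraries held 4.70 to 11.02 FPKM, the lowest being a D10 library and the highest a D3 library. As for Chaf1a, all BiD libraries from D7 on were above all WT libraries. The difference grew from 0.84 ± 0.23 at D7 (adjusted p = 0.0087) to 2.08 ± 0.23 for D10 (adjusted p = 2.94e-07), with 1.71 ± 0.23 for D12 (adjusted p = 3.89e-06), which is 1.89-fold, 4.66-fold and 3.62-fold in mean FPKM. The D7 call was lost without replicate 1 of either combination (highest adjusted p = 0.074), whereas the D10 and D12 calls held in all 10 alternatives other than the 2-fold limit, which they also passed. MEF stood at 6.74 and 7.95 FPKM and mES at 41.0. The ratio of Chaf1a to Chaf1b within a library was 0.674 to 1.66 over the course, 1.74 and 2.01 in MEF and 0.964 in mES.

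ASF1 comes from a pair of genes, of which Asf1b is the one tied to proliferating cells and Asf1a is expressed more evenly. Asf1b (chr8:83955694-83970195, plus strand) was 9.08 and 8.97 FPKM in BiD at D0 and 13.5 and 8.83 in WT. At D7 the pairs were 11.8 and 13.1 against 7.03 and 9.54 FPKM, which did not pass the test (0.54 ± 0.27, adjusted p = 0.15). At D8 the BiD library held 23.7 FPKM and the WT libraries 5.94 and 7.54. At D10 BiD held 19.0 and 24.1 FPKM and WT 4.24 and 7.52 (1.75 ± 0.27, adjusted p = 1.93e-05). At D12 the values were 17.2 and 15.1 against 5.90 and 6.62 FPKM (1.24 ± 0.27, adjusted p = 0.00081). BiD cells thus had 3.67-fold and 2.58-fold the mean WT level at D10 and D12, and mES with 40.2 FPKM was above all of them. MEF held 14.2 and 10.7 FPKM.

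Asf1a (chr10:53596961-53609225, plus strand) kept a narrower range, from 6.88 to 21.0 FPKM over the 31 libraries. It was higher in BiD at D3, with 15.1 and 16.8 against 10.0 and 9.38 FPKM (0.66 ± 0.19, adjusted p = 0.035). The D3 call did not hold when any of the 4 libraries was left out, without the filter on low values, after rescaling to a common total or with the compared groups alone (highest adjusted p = 0.19). It was again higher at D10, with 15.7 and 16.3 against 8.75 and 10.95 FPKM (0.66 ± 0.19, adjusted p = 0.0074; adjusted p = 0.092 without WT replicate 1). At D12 all 4 libraries lay between 11.4 and 11.7 FPKM, close to the 11.6 of mES, and the difference was 0.02 with a 95% interval of -0.39 to 0.43. MEF held 8.56 and 5.604 FPKM. The ratio of Asf1b to Asf1a per library changed sides over the course. In BiD it was 0.700 and 0.724 at D0 and 1.31 and 1.47 at D12, and in WT it was 1.16 and 1.18 at D0 and 0.517 and 0.578 at D12. In MEF it was 1.66 and 1.91 and in mES 3.47.

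Asf1a overlaps Mcm9, a helicase gene on the opposite strand, with which it shares 1748 of its 3638 exonic bases in GENCODE vM21. Whether the counting used strand is not given in the sources used here, so reads of the pair may not have been separated. Mcm9 itself was 5.45 to 5.68 FPKM in BiD and 2.96 to 3.22 in WT at D10. Chaf1a shares 4648 of 8854 exonic bases with Ubxn6, which lies on the other strand. Ubxn6 was 12.0 to 14.6 FPKM in BiD and 15.1 to 15.6 in WT at D10, the opposite order to Chaf1a. Hira shares 2778 of 6215 exonic bases with the predicted gene Gm28539 on its own strand, and the other 5 members share none. These base counts pool all GENCODE exons of a gene and may differ from the gene models used for counting.

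The HIRA complex is built from the scaffold Hira, the histone-binding subunit Ubn1 and Cabin1, and these 3 genes differed in their course. Hira (chr16:18876750-18970309, plus strand) climbed in BiD from 6.86 and 7.25 FPKM at D0 over 10.3 and 9.98 at D5 and 11.7 and 12.6 at D7 to 16.04 (D8), 14.8 and 17.8 (D10) and 13.3 and 14.9 (D12). In WT it held 6.41 and 6.04 FPKM at D0, 8.42 and 7.76 (D7), 6.80 and 8.55 (D10) and 9.25 and 9.28 (D12). The BiD libraries of a day lay above the WT libraries at D0 and D1 and again from D5 on, and the ranges overlapped at D3. The share of all genes with ranges apart was not computed. The difference was 0.53 ± 0.14 at D7 (adjusted p = 0.0063), then 1.00 ± 0.14 for D10 (adjusted p = 4.66e-06), with 0.55 ± 0.14 for D12 (adjusted p = 0.0023). BiD cells from D7 on were above mES (10.9 FPKM) and MEF (9.93 and 9.46), and their D10 libraries had 2.13-fold the mean WT level. The D7 call was lost without replicate 2 of either combination and with the compared groups alone (highest adjusted p = 0.066).

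Ubn1 (chr16:5050057-5086289, plus strand) was the only member called at D0. BiD libraries held 21.4 and 20.7 FPKM and WT libraries 11.01 and 13.5, with MEF at 12.0 and 12.1 (0.74 ± 0.14, adjusted p = 0.0066, 1.72-fold). The call was lost without either BiD library, without WT replicate 1 and with the compared groups alone (highest adjusted p = 0.65). At D1 the values were 20.9 and 17.7 against 13.4 and 14.4 FPKM, which did not pass (0.44 ± 0.14, adjusted p = 0.11). From D3 on no difference was called, with values from -0.22 to 0.26. Ubn1 was lowest in mES, at 7.08 FPKM. Cabin1 (chr10:75646110-75764357, minus strand) stayed between 4.15 and 9.76 FPKM and was called at no day, with its largest difference at D5 (9.25 and 9.76 against 5.96 and 7.45 FPKM; 0.45 ± 0.17, adjusted p = 0.074). The ratio of Hira to Ubn1 in BiD moved from 0.320 and 0.351 at D0 to 0.779 and 0.907 at D12. In WT it was 0.448 and 0.582 at D0 and 0.647 and 0.694 at D12.

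Daxx (chr17:33909404-33915590, plus strand) held 7.65 and 6.76 FPKM in BiD and 9.27 and 7.43 in WT at D0, and 14.6 and 10.3 against 12.2 and 11.9 at D7. The D8 values were 17.6 in BiD against 10.3 and 11.1 in WT. At D10 the pairs were 17.2 and 16.4 against 9.00 and 11.3 FPKM (0.68 ± 0.18, adjusted p = 0.0027), and at D12 they were 16.6 and 13.1 against 10.7 and 9.94 (0.48 ± 0.18, adjusted p = 0.030). The D10 call was lost without WT replicate 1 (adjusted p = 0.051), and the D12 call was lost under quantile normalisation, with the compared groups alone, without BiD replicate 1 and without either WT library (highest adjusted p = 0.26). MEF held 10.3 and 8.21 FPKM and mES 22.1.

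**Figure D2:**
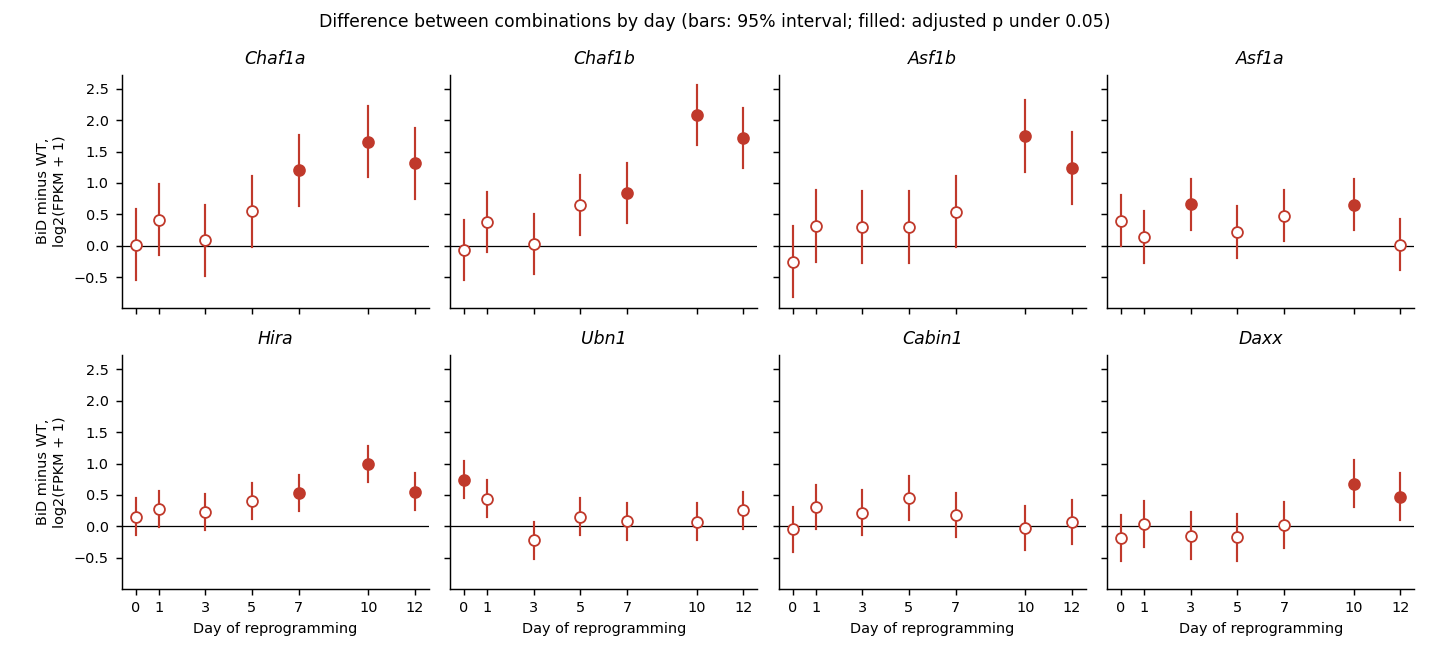
Difference between BiD and WT in log2(FPKM + 1) (vertical axis) at each tested day (horizontal axis) for the 8 members, with 95% intervals. Filled points were called. Chaf1b reaches 2.08 at D10, and Ubn1 is the only member called at D0.

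Change from D0 was asked within each combination. In BiD, 5 members were higher at D7 than at D0 (Chaf1a, Chaf1b, Hira, Cabin1 and Daxx), beside 31.2% of all genes, and Asf1b joined them at D12, which made 6 beside 42.8% of genes. The D12 rises were 1.72 ± 0.23 for Chaf1b (adjusted p = 2.16e-06), 1.46 ± 0.27 for Chaf1a (adjusted p = 0.00011), 0.94 ± 0.18 for Daxx (adjusted p = 0.00011), 0.91 ± 0.14 for Hira (adjusted p = 1.14e-05), 0.77 ± 0.27 for Asf1b (adjusted p = 0.019) and 0.62 ± 0.17 for Cabin1 (adjusted p = 0.0034). In WT, Ubn1, Cabin1 and Daxx were higher at D7 (3 members, beside 25.5% of genes higher and 13.2% lower). At D12, Hira (0.51 ± 0.14, adjusted p = 0.0062) and Cabin1 (0.51 ± 0.17, adjusted p = 0.023) were higher, beside 27.4% of genes, and Asf1b was lower (-0.72 ± 0.27, adjusted p = 0.043), beside 10.7%. Asf1b fell from 13.5 and 8.83 FPKM to 5.90 and 6.62 in WT, and this call was lost in 6 of 10 alternatives (highest adjusted p = 0.31). In BiD the D7 rise of Daxx did not hold without BiD replicate 1 of D7 (adjusted p = 0.079). At D12 that of Cabin1 did not hold without BiD replicate 2 of D12, nor that of Asf1b without either D0 library or without BiD replicate 1 of D12. With the compared groups alone, none of the WT calls held.

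All genes together shifted in these contrasts, with a median of 0.24 (D7) and 0.34 (D12) in BiD and 0.12 and 0.19 in WT. After quantile normalisation, which takes the shift out, Chaf1a and Chaf1b still rose in BiD (1.21 and 1.51 at D12), as did Hira and Daxx, but the D12 values of Cabin1 (0.20) and Asf1b (0.49) lost their call. Ubn1 was then called lower in BiD at D7 (-0.43, adjusted p = 0.035) and at D12 (-0.53, adjusted p = 0.0068), where it stood at -0.31 (adjusted p = 0.061) without that step. All WT rises of members at D7 and D12 lost their call under quantile normalisation, and the lower Asf1b at D12 kept it (-0.98, adjusted p = 0.0052). The split of all called genes moved from 7201 higher and 3186 lower to 4965 and 4864 in BiD at D12, from 5252 and 2129 to 3246 and 3236 at D7, from 4615 and 1805 to 2713 and 3118 in WT at D12, and from 4297 and 2224 to 2969 and 3227 at D7. Between combinations the split moved less, with the largest shifts at D0, from 208 and 113 to 117 and 104 under quantile normalisation, and at D3, from 716 and 993 to 481 and 1102 after rescaling to a common total. At D5 the majority turned under quantile normalisation, from 1524 higher and 1231 lower to 1247 and 1421. For the difference of D7 changes it also turned, from 1393 and 1291 to 1159 and 1353 after rescaling and to 1288 and 1408 under quantile normalisation.

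The D0 to D7 changes of BiD and WT differed for 2 members. Chaf1a rose more in BiD (1.18 ± 0.38, adjusted p = 0.041), beside 8.27% of genes, and Ubn1 less (-0.66 ± 0.20, adjusted p = 0.028), beside 7.67%. Each of these calls was lost in 8 of 15 alternatives (highest adjusted p = 0.20 and 0.16). For D0 to D12, 4 members rose more in BiD, beside 21.9% of genes, namely Chaf1b (1.78 ± 0.32, adjusted p = 0.00025), Asf1b (1.49 ± 0.38, adjusted p = 0.0049), Chaf1a (1.29 ± 0.38, adjusted p = 0.013) and Daxx (0.66 ± 0.25, adjusted p = 0.044). The values for Chaf1b and Asf1b held in all 14 alternatives other than the 2-fold limit. Chaf1a lost its call without WT replicate 1 or BiD replicate 2 of D0, and Daxx lost it in 9 of 14 alternatives (highest adjusted p = 0.18).

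Genes that act with the members moved in the same period. Of 15 partners, 8 were higher and none lower in BiD at D7, beside 17.3% and 11.1% of all genes. Their median difference was 0.62 against 0.08 for all genes. Nasp, which holds a reserve of H3-H4, was 54.1 to 67.6 FPKM in BiD against 10.2 to 12.3 in WT (2.34 ± 0.31, adjusted p = 1.47e-05). Mcm2, a subunit of the replicative helicase that also binds histones, was 39.8 to 43.9 against 11.6 to 12.7 FPKM (1.71 ± 0.23). Hirip3, which binds Hira, differed by 1.19 ± 0.31 and Trim28, a corepressor that recruits H3K9 methylation, by 1.09 ± 0.17. By D12, 13 of 15 partners had risen in BiD from D0, beside 42.8% of all genes (9 rose and 1 fell under quantile normalisation), led by Nasp (3.31), Mcm2 (2.33), Hirip3 (2.11) and Trim28 (1.70). Mbd1, a methyl-CpG binding protein that recruits CAF-1, was lower in BiD at D10 (-1.27 ± 0.14) and D12 (-0.96 ± 0.14). The constant small CAF-1 subunit Rbbp4 was higher in BiD at D10 (1.05 ± 0.24, adjusted p = 0.00095) and D12 (0.84 ± 0.24, adjusted p = 0.0062). Atrx, the partner of Daxx, differed by 0.41 at D10 (adjusted p = 0.20) and 0.56 at D12 (adjusted p = 0.087), and Ubn2, the paralogue of Ubn1, by 0.42 and 0.50 (adjusted p = 0.22 and 0.15). These 4 genes fall outside the naming rule and were picked after their values were seen.

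Of 22 other histone chaperones, 16 were higher and 1 (Spty2d1, -0.44 ± 0.15) lower in BiD at D7 (median 0.88), beside 17.3% and 11.1% of all genes. Among the higher genes were Oip5 (1.56 ± 0.28), which helps to load the centromeric histone, Set (1.37 ± 0.17), an inhibitor of histone acetylation, and Npm1 (1.298 ± 0.19), the nucleolar nucleophosmin. From D0 to D12 in BiD, 16 rose and 1 fell, beside 42.8% and 18.9% of all genes (14 and 1 under quantile normalisation), with Anp32a (2.37), Npm1 (2.00), Vps72 (1.93) and Ncl (1.85) in front. Among 10 genes for H3.3, linker and variant histones, 8 were higher at D7 (median 0.96), beside 17.3% of all genes. They included H2afz (1.95 ± 0.27), which encodes H2A.Z, H1fx (1.42 ± 0.34), H2afy2 (1.28 ± 0.23) and the centromeric Cenpa (1.26 ± 0.37). Cenpa is also counted among the mitotic genes below. From D0 to D12 in BiD, 5 of these 10 rose and none fell, a share near the 42.8% of all genes (6 and 0 under quantile normalisation), led by H1fx (1.72), H2afx (1.62), H2afy (1.61) and Cenpa (0.91).

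Like CAF-1, most markers of DNA replication and mitosis were higher in BiD at D7, D10 and D12. At D5 in BiD, mean CAF-1 levels stood above D0 and the mean sums of these markers below D0, as given below. In WT the mean marker sums were below D0 at D5 too. Of 35 replication and S-phase genes, 30 were higher and none lower in BiD at D7 (median 1.17), 35 at D10 (1.76) and 31 at D12 (1.38). Over all genes, 17.3%, 32.4% and 31.6% were higher at D7, D10 and D12, respectively. Examples at D7 are the helicase subunits Mcm7 (1.90 ± 0.26), Mcm3 (1.77 ± 0.24) and Mcm5 (1.76 ± 0.29) and the ribonucleotide reductase subunit Rrm2 (1.79 ± 0.21). From D0 to D12 in BiD, 29 rose, beside 42.8% of all genes (28 under quantile normalisation), with Ung (3.68), Cdt1 (2.59), Pold1 (2.56) and Lig1 (2.53) in front, and Ccne2 fell (-0.68). Of 20 mitotic genes, 19 were higher at D7 (median 1.25), 20 at D10 (2.42) and 20 at D12 (1.79), beside the same shares of all genes. Cdc20 (1.75 ± 0.32), Ccnb1 (1.70 ± 0.29), Bub1 (1.65 ± 0.25) and Bub1b (1.57 ± 0.23) were in front at D7. From D0 to D12 in BiD, 17 of these 20 rose and none fell, beside 42.8% and 18.9% of all genes (16 and 0 under quantile normalisation). Bub1b (1.85), Plk1 (1.64), Cenpf (1.60) and Aurkb (1.53) led. In WT, none of the 20 rose from D0 to D7 and 6 fell, beside 25.5% and 13.2% of all genes. The same numbers of mitotic genes held for D12, beside 27.4% and 10.7% of all genes. Counts of higher genes in these lists between combinations at D7, D10 and D12 changed by at most 2 under rescaling to a common total or quantile normalisation.

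**Figure D3:**
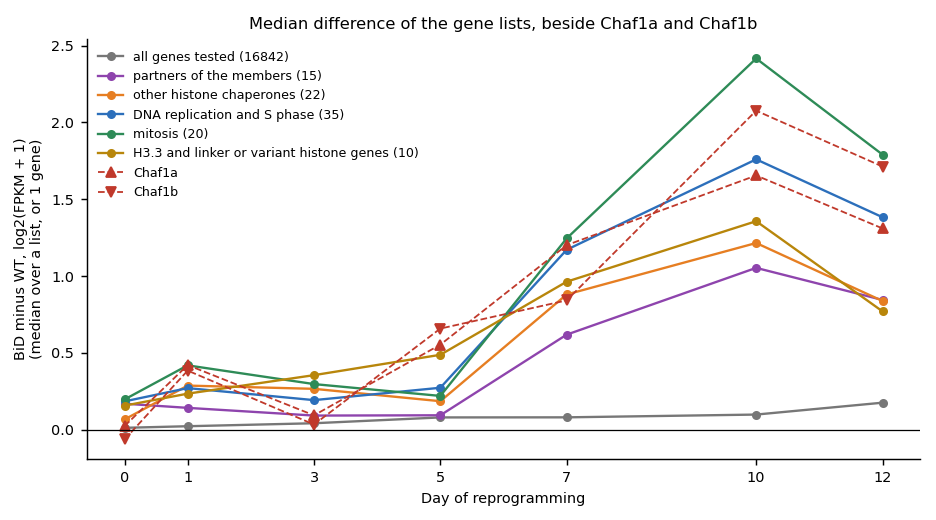
Median difference between BiD and WT in log2(FPKM + 1) (vertical axis) of 5 gene lists and of all 16842 tested genes at each tested day (horizontal axis), with Chaf1a and Chaf1b as dashed lines. All genes stay at or under 0.175, while the replication list reaches 1.76 and the mitosis list 2.42 at D10.

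The replication genes summed to 292 to 480 FPKM in BiD from D0 to D5 (8 libraries), 705 to 1333 from D7 to D12 (7 libraries), 256 to 414 in WT over the whole course (16 libraries), 433 to 441 in MEF and 2067 in mES. Chaf1a and Chaf1b together made 12.8 to 25.7, 29.2 to 60.8, 12.5 to 19.5, 20.3 to 21.8 and 80.5 FPKM in the same libraries. Their sum was 3.26% to 6.54%, 3.97% to 5.64%, 3.59% to 6.28%, 4.59% to 5.03% and 3.90% of the replication sum. In BiD this share was 3.74% and 3.26% at D0 and 6.54% and 6.04% at D5. In WT it was 4.36% and 3.85% at D0, 6.28% and 5.27% at D3 and 4.88% and 5.33% at D5. From D0 to D5 in BiD, mean Chaf1a went from 7.40 to 11.7 FPKM and mean Chaf1b from 7.38 to 12.2. The mean replication sum of BiD went from 421 to 381 FPKM and the mean mitosis sum from 434 to 288. In WT, mean Chaf1a went from 7.47 to 7.74 FPKM and mean Chaf1b from 7.69 to 7.42. The WT replication sum went from 367 to 296 FPKM and the mitosis sum from 353 to 226.5. The change from D0 to D5 was not tested. CAF-1 and the replication genes were both higher in BiD from D7 on, with CAF-1 shares that overlapped those of WT, and the part of proliferation in the CAF-1 and Asf1b differences was not tested.

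**Figure D4:**
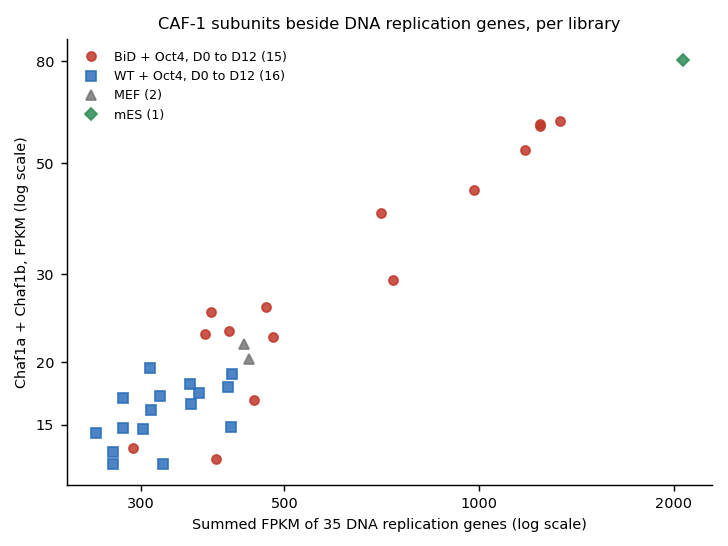
Sum of Chaf1a and Chaf1b in FPKM (vertical axis) against the summed FPKM of 35 DNA replication genes (horizontal axis), both on log scales, 1 point per library of the gene table. BiD libraries of D7 to D12 lie at 705 to 1333 FPKM of replication genes and mES at 2067.

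The genes most like each member over the 16 combination and day means, out of 9325 sufficiently expressed genes, were found by Pearson's r. For Chaf1a they were Larp7 (r = 0.98), Pcna (0.98), which encodes the clamp that CAF-1 binds, and the nucleolar gene Ncl (0.98). For Chaf1b they were Polr1b (0.98) and Utp18 (0.98), both of ribosome production, and Cdca5 (0.98), a regulator of cohesin. Asf1b was closest to the mitotic kinase gene Aurka (0.97), Nsun2 (0.96) and Ptbp1 (0.96). For Hira, Wbp11 and Eif4enif1 (both 0.98) were among the closest. Asf1a had Ccdc25 (0.94), Sf3b6 (0.91) and Ipo8 (0.91), Cabin1 had Map3k11 (0.98), Cdk16 (0.95) and Zfp282 (0.94), and Daxx had Dcakd (0.95), Hk2 (0.93) and Rybp (0.92). Ubn1 had no gene above 0.73 (Rabgap1 0.73, Lmbrd2 0.71, Fbxw11 0.68). Among the members, r was 0.96 between Chaf1a and Chaf1b, 0.96 between Chaf1a and Hira, 0.94 between Chaf1b and Asf1b, and -0.16 to 0.23 between Ubn1 and the others. These values share libraries and group means and are given as descriptions.

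Established iPSC were compared between combinations to see whether the differences of the time course were still present. Their fibroblast marker sums were 2.61 to 1391 FPKM in BiD (median 24.2) and 3.31 to 435 in WT (median 22.0). In the same transcript values MEF held 6472 to 7343 FPKM and mES 10.5, so these markers were above mES in some iPSC samples. The source of this RNA was not tested. The pluripotency marker sums were 1848 to 3366 FPKM in BiD iPSC, 2725 to 5152 in WT iPSC and 3106 in mES. None of the 8 members was called (0% of 12456 genes tested were called, and 201 genes had an unadjusted p under 0.05). Differences ran from -0.12 for Asf1a to 0.08 for Ubn1, and the 95% intervals of all members lay within -0.36 and 0.30. Chaf1a held 25.9 to 43.3 FPKM in 6 BiD samples (median 40.1) and 30.4 to 41.6 in 6 WT samples (median 34.96). Chaf1b held 28.3 to 45.5 (median 42.8) and 34.2 to 46.5 (median 40.8), and Asf1b 15.2 to 22.4 (median 20.4) and 15.01 to 24.8 (median 19.2). BiD iPSC replicate 4 (line iPSC1) was the lowest of its group for Chaf1a, Chaf1b, Asf1b, Hira, Cabin1 and Daxx. It also had the lowest replication sum of the iPSC, 1604 FPKM against 1875 to 2459 in the others, and without it no member was called either. Averaging the pair of WT samples that share a clone number left 0 members called between combinations and the same count of 7 against MEF.

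Against MEF, 6 members were higher in the 12 iPSC samples, beside 40.4% of 13312 genes tested, and Ubn1 was lower, beside 29.7%. Chaf1b differed most, with 28.3 to 46.5 FPKM (median 42.5) against 8.47 and 10.8 (1.96 ± 0.16, adjusted p = 3.71e-08). Chaf1a was 25.9 to 43.3 (median 37.3) against 12.7 and 13.1 FPKM (1.39 ± 0.18, adjusted p = 5.09e-06). Daxx was 7.09 to 12.7 (median 10.3) against 4.00 and 3.21 (1.27 ± 0.18, adjusted p = 1.301e-05), Asf1a 12.3 to 22.7 (median 18.2) against 8.35 and 5.64 (1.22 ± 0.19, adjusted p = 3.03e-05) and Asf1b 15.01 to 24.8 (median 19.6) against 12.7 and 10.0 (0.72 ± 0.16, adjusted p = 0.00068). Hira differed by 0.62 ± 0.19 (adjusted p = 0.0074), a call lost after rescaling to a common total and without either MEF sample (highest adjusted p = 0.057). Ubn1 held 4.96 to 7.68 FPKM (median 5.81) against 11.3 and 11.5 in MEF, so all 12 samples were below both MEF samples (-0.85 ± 0.13, adjusted p = 2.81e-05). Cabin1 did not pass (-0.14, 95% interval -0.47 to 0.19). The median of all genes was 0.21 in this contrast. The single mES sample held 34.7 FPKM of Asf1b, above all 12 iPSC samples, and 11.4 of Asf1a, below all of them.

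**Figure D5:**
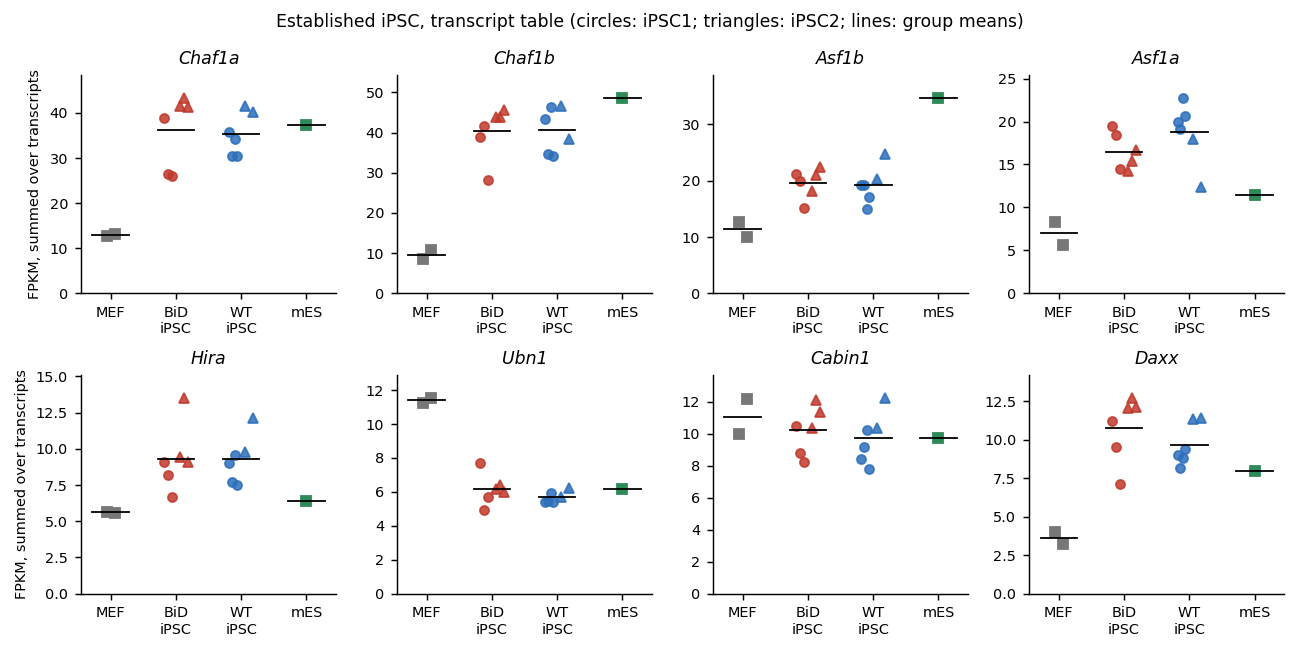
FPKM summed over transcripts (vertical axis, from 0) of each member in MEF, BiD iPSC, WT iPSC and mES, 1 point per sample, with circles for line iPSC1, triangles for line iPSC2 and horizontal lines at the means. Chaf1a and Daxx of iPSC2 lie above all iPSC1 samples, and Ubn1 of all iPSC lies under MEF.

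The iPSC samples came from lines labelled iPSC1 (7 samples) and iPSC2 (5 samples). For 2 of 8 members every iPSC2 sample was above every iPSC1 sample, beside 2.68% of all genes tested. Chaf1a was 40.2 to 43.3 FPKM in iPSC2 and 25.9 to 38.8 in iPSC1, and Daxx was 11.3 to 12.7 and 7.09 to 11.2. No test was run on the lines, and line and passage, which the table's column names give as lower for iPSC2, cannot be told apart.

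In the transcript table, Chaf1a, Asf1a and Asf1b were represented by 1 transcript each. Of Chaf1b, 1 of 3 transcripts carried 98.1% to 98.8% of the gene in MEF and 69.1% to 99.7% in iPSC. For Hira the reference transcript took 85.7% and 95.02% in MEF but 0% to 85.5% in iPSC (median 47.7%), with 34.9% in mES. For Daxx the share of its main reference transcript ran from 0% to 99.8% among the iPSC samples. The gene sums of multi-transcript members were less scattered than these shares. Levels are not compared between the tables, since the same MEF samples held 10.3 and 8.21 FPKM of Daxx in the gene table and 4.00 and 3.21 in the transcript table.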

How the data were processed

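Per the labels and the study's methods, the authors trimmed reads with Trim Galore 0.6.4, aligned them to mm10 with HISAT2 2.2.1 and quantified with StringTie 2.2.1, and the deposited values are FPKM, with replicates kept apart. Library kit strandedness and the annotation of the gene table are not given in the sources used here. Members' transcripts in the transcript table carry RefSeq accessions. The authors' differential calls by GFOLD need reads and were not used here. From the FPKM, a gene entered a fit if 2 or more of its samples reached 1 FPKM, log2(FPKM + 1) was taken (which understates changes of low genes), and limma 3.58.1 (R 4.3.3, two-sided moderated tests with an intensity trend, Benjamini-Hochberg adjustment) was fitted with 1 mean per combination and day over all 31 time-course samples. For the iPSC, transcripts were summed by symbol and line was a covariate, and all iPSC were also set against MEF (13312 genes). FPKM are not counts, so no count model was applied. For the depth check, the step of 1 read was found for 4499 genes, and 87.9% to 93.9% of low values were whole within 0.06 of a step. Depth of the transcript table is unknown. Scripts were tested on simulated data.

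All 8 members were reported in every sample. From each other list, up to 4 called genes with the largest difference were named for BiD against WT at D7 and for D12 against D0 within BiD, and for each member the 3 genes of most similar course among those averaging 5 FPKM or more. Some genes that this rule names are not reported here. The members and lists were chosen with earlier results of these data known. Alternatives were a pseudocount of 0.1, no filter, a common total, quantile normalisation, a replicate block, the compared groups alone, a 2-fold limit, leaving out single libraries and, added after the depths were seen, like-depth libraries alone.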

Additional observations from a re-analysis of the deposited data

Results flagged for a closer look

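Member changes from D0 that differed between the combinations by the test of the difference itself are listed here. For D0 to D7, the change in BiD exceeded that in WT by 1.18 for Chaf1a (BiD 1.21, WT 0.03) and differed by -0.66 for Ubn1 (BiD -0.26, WT 0.40), both on the log2 scale. For D0 to D12, the difference was 1.29 for Chaf1a (BiD 1.46, WT 0.18), 1.78 for Chaf1b (1.72 and -0.06), 1.49 for Asf1b (0.77 and -0.72) and 0.66 for Daxx (0.94 and 0.28). The D12 differences include the WT libraries of D12, whose relative depths were 3.28 and 2.1 against 0.828 to 1.03 in the other libraries of these contrasts, and the part of depth in them was not tested. In the iPSC groups of 6, no member had a sample whose gap to its nearest neighbour passed Dixon's limit of 0.625 of the group's range.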

How the results depend on the processing

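Of 46 member calls, 24 held under every alternative other than the 2-fold limit, 22 were lost under at least 1, and no called value changed sign. Of 74 uncalled values, 11 were called under at least 1 alternative. Depth limits the D8 to D12 comparisons, since WT libraries were deeper there, and precision rests on 2 libraries per group.

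Member counts under the 2-fold limit were 0 (D0), 0 (D3), 1 (D7), 3 (D10) and 3 (D12) between combinations, 1 (D7) and 2 (D12) for change within BiD, 0 and 0 within WT, 1 for the difference of D7 changes and 4 for iPSC against MEF. Over all genes that limit left 128 (D0), 224 (D1), 623 (D3), 1091 (D5), 1758 (D7), 4676 (D10) and 3946 (D12), then 3171 and 5850 within BiD, 2977 and 2721 within WT, 1698 and 4020 for the differences of change and 5386 for iPSC against MEF. With the compared groups alone, members called were 0 (D0), 0 (D3), 1 (D5), 0 and 0 within WT and 0 for the difference of D7 changes, and all genes called were 0 (D0), 186 (D1), 274 (D3), 3180 (D7), 3178 and 2711 within WT and 1253 and 4024 for the differences of change. Without the filter, members called were 0 (D3), 1 (D5) and 1 (difference of D7 changes). Rescaling left 0 at D3. Quantile normalisation left 0 (D7) and 1 (D12) within WT and 1 for the difference of D7 changes, as did like-depth libraries alone for the last. Line iPSC1 alone and line iPSC2 alone each called 1 gene between iPSC, and no member.

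Leaving out single libraries gave 0 to 1 members at D0, 0 to 0 at D3, 0 to 2 (D7) and 1 to 3 (D12) within WT, 0 to 2 for the difference of D7 changes and 2 to 5 for that of D12. Over all genes it gave 113 to 1564 (D0; 321 with all libraries), 180 to 312 (D1), 858 to 1629 (D3), 1446 to 2116 (D5) and 3119 to 4045 (D7). The cause of these shifts was not tested.

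The main fit did not treat the replicate numbers as pairs, and the labels do not say whether they are. The correlation of same-numbered deviations was 0.227 (D0), 0.135 (D1), -0.0647 (D3), -0.0429 (D5), 0.395 (D7), 0.122 (D10) and 0.0202 (D12), so it was not near 0 at every day. With the replicate block, 1 member (Chaf1b) was called at D5 in place of 0, and the other counts moved by under 1.5 times.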
